A study of Mus musculus with 17 samples.

Results

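The comparison described here set pre-leptotene (PreL) spermatocytes of *Nat10*-SKO mice against PreL spermatocytes of WT mice, in 6 of the 17 libraries of the study. SKO mice carried 1 null and 1 floxed *Nat10* allele and a Stra8-GFPCre knock-in (*Nat10* fl/-; Stra8-GFPCre), in which Cre made by cells that express *Stra8* excises exons 4 and 5, so that testis cells without Cre kept the floxed allele. The controls were labelled wild type, and all mice were labelled C57BL/6, which the methods of the study give as C57BL/6J. Whether the controls carried the knock-in, the age of the mice used for sorting, and whether cells of several mice were pooled are not given in the sources used here. PreL cells were sorted from testis suspensions stained with Hoechst and propidium iodide, and polyadenylated RNA was amplified by the Smart-seq2 method, which primes from the poly(A) tail, with ERCC spike-in RNA added. The comparison held 3 WT libraries (WT 1, 2 and 4) and 3 SKO libraries (SKO 1, 2 and 3). Of 23282 genes listed, 13132 had a mean of at least 10 reads over the 6 libraries and were tested, and the other 10150 were not.

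NAT10 is the acetyltransferase that writes N4-acetylcytidine (ac4C) on ribosomal RNA, transfer RNA and messenger RNA. Pre-leptotene spermatocytes are the last germ cells to replicate their DNA before meiosis. Retinoic acid induces STRA8 in them, which with its partner MEIOSIN switches on the genes of meiotic prophase, after which chromosome axes form, double-strand breaks are made and homologous chromosomes synapse, while mitotic division genes are held down.

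Values are given per library, in the order WT 1, 2, 4 and SKO 1, 2, 3, as rescaled values. These are the deposited ERCC-calibrated values divided by a size factor that levels the median gene over the 6 libraries, and 1 read was worth 1.59 to 1.95 of them. The libraries held 10574858 to 11268541 reads, which are PCR products without molecular identifiers. The log2 fold change is SKO minus WT on log2(rescaled value + 10), given with its standard error, and it understates the change of low genes. A gene was called at a limma adjusted p-value under 0.05 with an absolute log2 fold change above 1, with n = 3 libraries per genotype throughout. Nothing states that the libraries of a group came from separate mice, so p-values measure the spread between libraries, which may be technical. Fewer cells of a type and less RNA per cell cannot be told apart in bulk RNA.

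*Nat10* itself, on mouse chromosome 2 (103721256 to 103761270, minus strand, GRCm38), fell in all 3 SKO libraries. It was 664, 733 and 483 in WT and 283, 254 and 206 in SKO, which is a change of -1.29 ± 0.23 (adjusted p = 0.00591). The groups did not overlap, and the reads that remained are counts over the whole gene, in which exons outside the excised pair are still counted. Early meiotic RNA was present under both labels: *Sycp3* and *Stra8* were high in every PreL library.

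The libraries stood apart in what other cell types they held. The summed Leydig cell markers were 2333, 3779 and 2175 in WT and 30689.9, 41485 and 5690.2 in SKO, and the summed Sertoli cell markers were 10015, 11338 and 11791 in WT and 59477, 63482 and 9147 in SKO. SKO 1 and SKO 2 were therefore high in somatic testis RNA, while SKO 3 lay below every WT library in the Sertoli sum and above every WT library in the Leydig sum. Summed spermatid markers were 27272, 34708 and 21620.4 in WT and 1659.9, 1933 and 2123 in SKO, and summed pachytene and diplotene markers were 35178, 62219 and 25915 in WT and 10427, 11852 and 11352 in SKO. Late germ cell RNA was thus higher in each WT library than in each SKO library, with WT 2 the highest. Spermatid markers made up 0.104% to 0.172% of the WT values and 0.00876% to 0.0108% of the SKO values, although the sort was for pre-leptotene cells. Because of this split, results are also given for SKO 3 alone against the 3 WT libraries, a comparison added after the marker sums were seen, in which that lone library is assumed to vary like the WT libraries. The part of other cell types in any result was not tested.

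**Figure D1:**
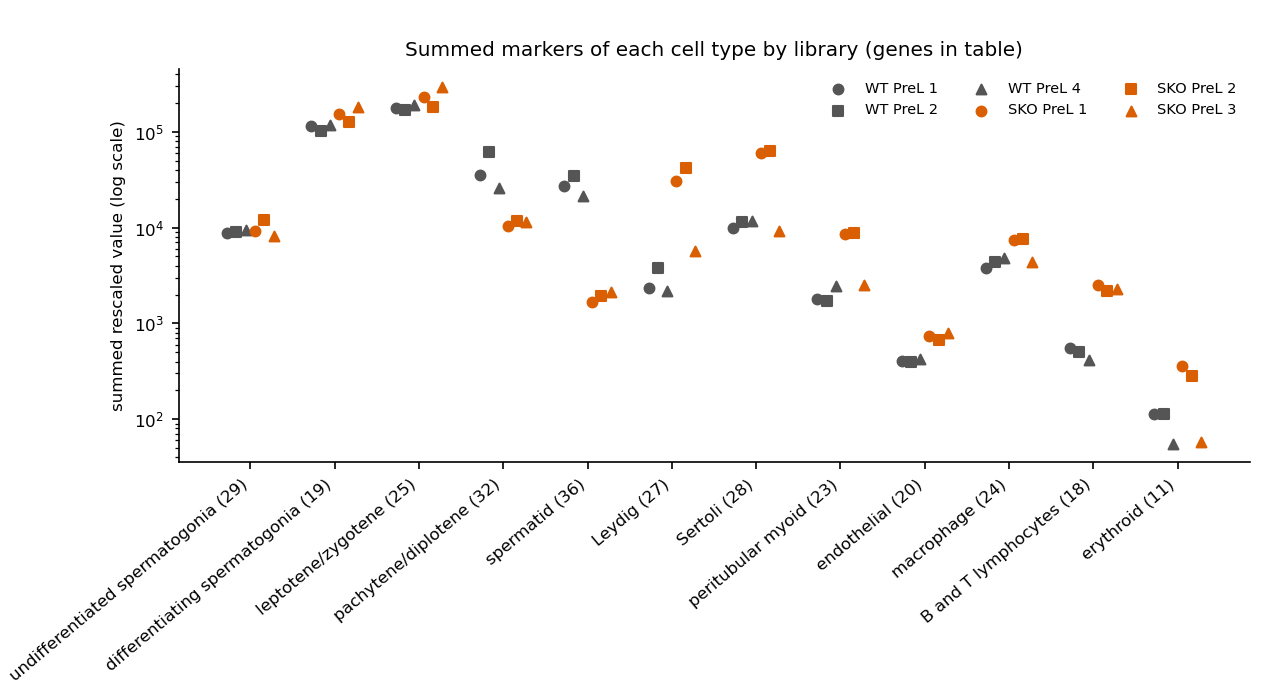
Summed rescaled values (log scale) of the markers of 12 cell types in each of the 6 PreL libraries, grey for WT and orange for SKO, with 1 symbol per library; the number of genes in each list is in parentheses. Leydig, Sertoli and peritubular myoid sums are high in SKO 1 and SKO 2, spermatid and pachytene sums are low in all 3 SKO libraries, and lymphocyte sums are high in all 3.

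Of the 13132 genes, 765 (5.83%) fell and 701 (5.34%) rose, around a median log2 fold change of 0.04. Every SKO library was below every WT library for 764 of the genes that fell, and above for 669 of those that rose. Over all genes tested, 20% had every SKO library below every WT library and 17.4% had every SKO library above. Of the genes that fell, 296 had at most 3 reads in each SKO library and 96 had 0 reads in all of them. Of the genes that rose, 80 had at most 3 reads in each WT library. Such genes passed the filter of 10 reads only through the genotype in which they are high. Their calls are therefore a description and not a test. With SKO 3 alone, 189 genes (1.49% of 12650) were lower and 17 (0.134%) were higher, of which 185 and 10 were among the genes above. Without rescaling to the median gene, on the ERCC-calibrated values themselves, the median log2 fold change moved by 0.69 to 0.73, and 585 genes were lower and 3459 higher, so changes below are relative to the median gene.

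Members of 45 gene lists were among the tested genes. Lists of late germ cell genes had the lowest medians, lists of somatic, lymphocyte and interferon-stimulated genes the highest, and lists of meiotic prophase genes lay near the median gene. In 4 lists, namely telomere attachment of meiotic chromosomes, m6A writers, erasers and readers, polycomb and PRC1.6 complexes, and targets of the ATF4 stress response, no member was called by limma or edgeR, although 3 of 15, 4 of 19, 13 of 34 and 7 of 21 members had an unadjusted p under 0.05. DESeq2 called 1 ATF4 target and no member of the other 3 lists.

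Regulators of meiotic entry stayed, as a list, at the level of the median gene. Of 21 tested, 1 fell and 1 rose (4.76% each, against 5.83% and 5.34% of all genes), at a list median of 0.01. With SKO 3 alone 1 was lower and 0 were higher. *Dmrtb1*, which encodes the factor DMRT6 that directs spermatogonia from mitosis into meiosis, was 2601, 3172 and 3336 in WT and 1078, 1106 and 1128 in SKO, with no overlap between groups, and fell by 1.44 ± 0.14 on the log2 scale (adjusted p = 0.000215). *Sohlh2*, a helix-loop-helix factor of differentiating spermatogonia, was 913, 638 and 651 in WT and 1377, 1552 and 1725 in SKO. It rose by 1.08 ± 0.18 (adjusted p = 0.00424) with no overlap, although it was not called without WT 2, at 0.99, or without WT 4, just inside the threshold.

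*Stra8* did not pass the fold threshold, but every SKO library lay below every WT library. It was 12768, 12036 and 14438 in WT and 7119, 6377 and 9719 in SKO, which is a change of -0.78 ± 0.17 (adjusted p = 0.0138), and -0.05 on the ERCC-calibrated values, against 0.73 for the median gene there. The genotype difference in *Stra8* was of the other sign in the spermatogonia (SPG) sorted before this stage. Rescaled over all 17 libraries, *Stra8* was 7932, 6142 and 6936 in WT SPG and 11045, 9258 and 10308 in SKO SPG, a log2 fold change of 0.55. The genotype effect in PreL minus that in SPG was -1.33 (interaction adjusted p = 0.00917), and it was called in all 6 fits that left out 1 PreL library. The Cre knock-in of the SKO line bears the name of this gene, and how its transcripts were counted is not given in the sources used here. *Meiosin* was not listed in the table.

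*Kit*, *Dazl*, *Ddx4* and *Zbtb16*, which mark germ cells at or before this stage, were not called. *Kit*, the receptor of differentiating spermatogonia, was 2888, 2386 and 3198 in WT and 2571, 2617 and 2556 in SKO (log2 fold change -0.12 ± 0.14, adjusted p = 0.571). *Dazl*, an RNA-binding protein that licenses germ cells for meiosis, was 43792, 39767 and 51762 in WT and 57053, 47046 and 63662 in SKO (0.31 ± 0.17, adjusted p = 0.241). The groups overlapped in both genes, as they did in *Ddx4* (log2 fold change 0.17 ± 0.12) and in *Zbtb16* (0.10 ± 0.46), which marks undifferentiated spermatogonia and was 88.1, 64.7 and 115 in WT and 82.7, 184 and 52.5 in SKO. The direction of *Kit* turned to 0.60 on the ERCC-calibrated values and that of *Zbtb16* to -0.62 with SKO 3 alone.

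Genes of the chromosome axis and the synaptonemal complex, the protein scaffold between paired homologues, were present in both genotypes. Of 16 tested, 1 rose (6.25%, against 5.34% of all genes) and 0 fell (against 5.83%). The median log2 fold change was 0.17, and 0.57 with SKO 3 alone. *Sycp3*, a lateral element protein, was 33941, 26489 and 27062 in WT and 66334, 49141 and 78123 in SKO, so that each SKO library was above each WT library, and it rose by 1.13 ± 0.20 (adjusted p = 0.00536). Its change was 0.98 without SKO 3, below the threshold. The transverse filament gene *Sycp1* was 22318, 21725 and 24984 in WT and 29642, 24664 and 36715 in SKO (0.38 ± 0.16, adjusted p = 0.138), and SKO 3 held the highest value. *Hormad1*, whose protein coats unsynapsed axes, was 6822, 5504 and 6554 in WT and 9313, 7060.1 and 12303 in SKO (0.57 ± 0.19, adjusted p = 0.0696) without overlap.

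The meiotic cohesin genes did not follow *Sycp3*. The kleisin gene *Rec8* was 266, 257 and 226 in WT and 231, 273 and 384 in SKO (0.21 ± 0.25), *Smc1b* was 22597, 23148 and 26670.5 in WT and 26049, 19053 and 29407 in SKO (0.02 ± 0.18), and *Stag3* was 5780.5, 6372 and 6969 in WT and 5459, 4680.3 and 8059 in SKO (-0.11 ± 0.19), all with overlapping groups and with adjusted p of 0.592, 0.945 and 0.731. In each of the 3, SKO 3 was the highest of all 6 libraries, and *Stag3* changed sign to 0.35 with SKO 3 alone and to 0.62 on the ERCC-calibrated values. The signs of *Rec8* and *Smc1b* also turned under other settings.

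Of 11 genes for the formation of double-strand breaks, 1 fell and 1 rose (9.09% each, against 5.83% and 5.34% of all genes). The list median was 0.02, and 0.47 with SKO 3 alone. *Morc2b*, a paralogue of the chromatin gene *Morc2a*, fell, at 136, 301 and 159.7 in WT and 0, 11.1 and 0 in SKO, which is a change of -3.94 ± 0.49 (adjusted p = 0.00108). *Gm960*, the earlier symbol of *Top6bl*, which encodes the partner of SPO11 in the cleavage complex, was 206, 135 and 140.2 in WT and 386, 297 and 552 in SKO and rose by 1.29 ± 0.29 (adjusted p = 0.0175). The rise of *Gm960* was not called without SKO 1 or WT 2. *Spo11* itself varied widely within each group. It was 190.3, 421 and 50.6 in WT and 322, 259 and 646 in SKO (log2 fold change 1.16 ± 0.63, adjusted p = 0.229), and the groups overlapped. *Prdm9*, which marks hotspots for breaks, was 1379.9, 1367 and 2055 in WT and 1712, 1455 and 2700.3 in SKO (0.26 ± 0.24, adjusted p = 0.48).

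Of 34 strand exchange and crossover genes 1 fell (2.94%, against 5.83% of all genes) and 4 rose (11.8%, against 5.34%), with a median of 0.07. With SKO 3 alone 1 was lower and 2 were higher, and without SKO 1 the count of higher genes was 1. *Rad51ap2*, a meiotic recombination gene, was 326, 291 and 243 in WT and 838, 821 and 1394 in SKO and rose by 1.76 ± 0.24 (adjusted p = 0.00172). Its groups did not overlap and SKO 3 was highest. *Mnd1*, a partner of PSMC3IP in strand exchange, and *Meiob*, listed as *4930528F23Rik*, rose by 1.03 ± 0.22 and by 1.0 ± 0.29. Without SKO 1, *Mnd1* and *4930528F23Rik* were not called, whereas *Rad51ap2* was. *Mnd1* was also not called without SKO 3 or WT 1, nor *4930528F23Rik* without SKO 3, WT 2 or WT 4. In the other direction, the translocase gene *Rad54l* was 1170.2, 1253 and 1381 in WT and 488, 658 and 447 in SKO, which is lower in each SKO library, and fell by 1.26 ± 0.18 on the log2 scale (adjusted p = 0.00228). The crossover gene *Spo16*, listed as *1700028K03Rik*, was 502, 510.2 and 481 in WT and 541, 318 and 795 in SKO (log2 fold change 0.05 ± 0.29) with overlapping groups. *Dmc1*, the meiotic recombinase, was 3227, 2515 and 2849 in WT and 3669, 3133 and 5223 in SKO (0.46 ± 0.19, adjusted p = 0.124).

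Markers of the next stage were slightly above the median gene. Of 25 leptotene and zygotene markers, which overlap the lists above, 3 rose and 0 fell, with a list median of 0.38 and 0.88 with SKO 3 alone, where 2 were higher. The count was 1 without SKO 1, SKO 3 or WT 2, and 5 without WT 1. Every SKO library was above every WT library for 9 of the 25, against 17.4% of all genes, and below for 1, against 20%. SKO 3 exceeded every WT library for 22 of the 25, a count of a single library without a share over all genes to set it against. The summed values of the 25 markers were 177109, 168007 and 190757 in WT and 229877, 179977 and 294582 in SKO. SKO 3 was thus highest and SKO 2 lay within the WT range.

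**Figure D2:**
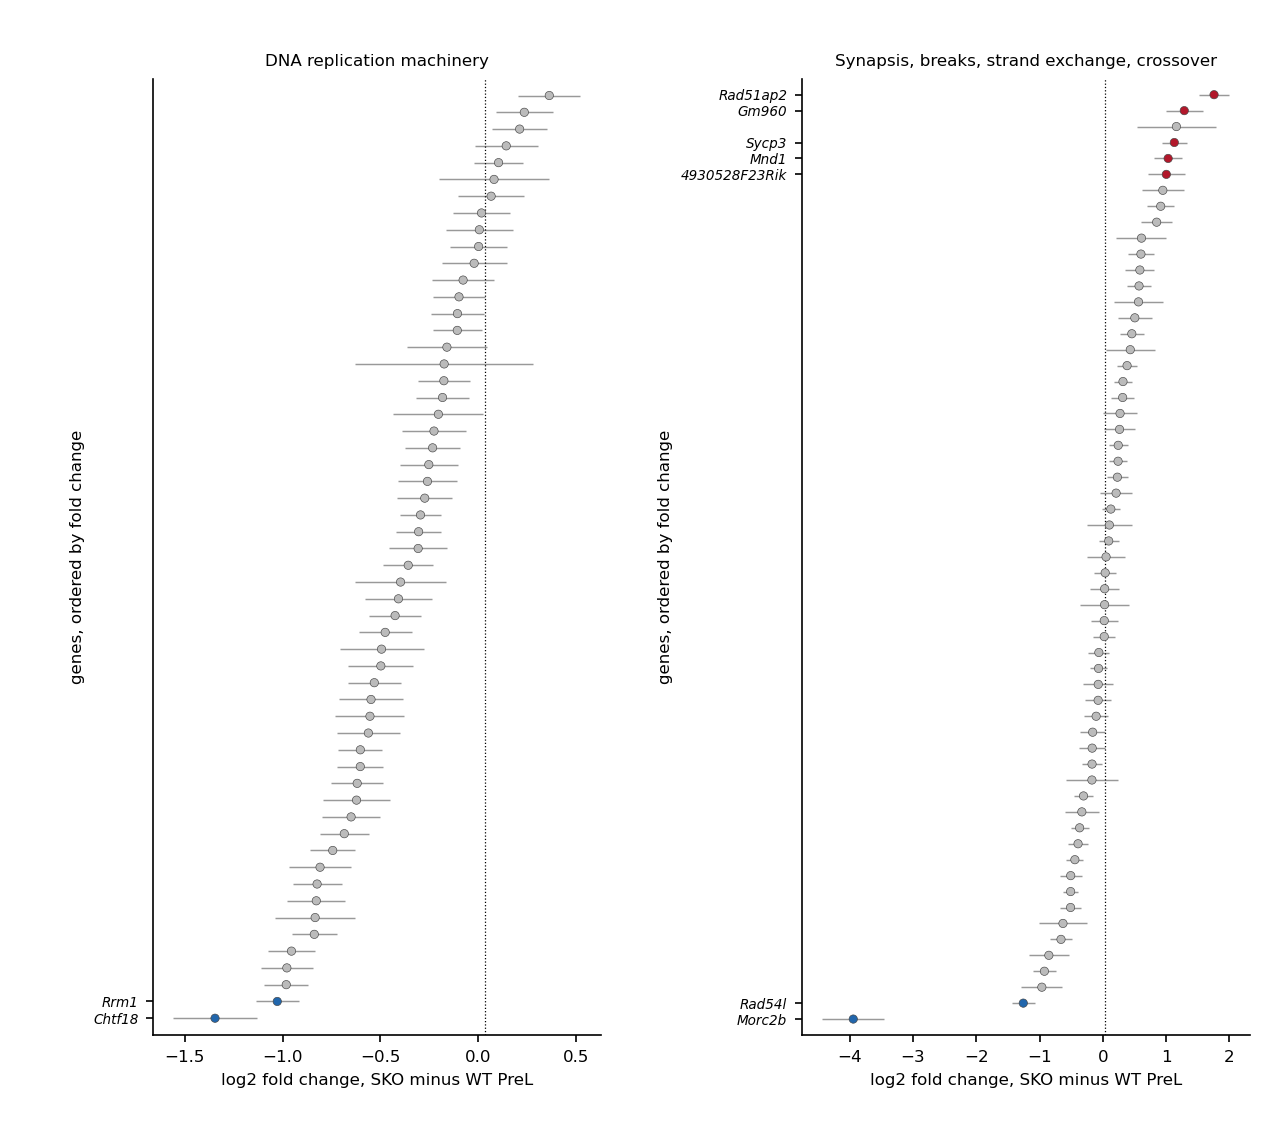
Log2 fold change with its standard error, SKO minus WT PreL, of 56 DNA replication genes (left) and of genes for synapsis, breaks, strand exchange and crossover (right), with genes called lower in blue, called higher in red (both named) and others in grey; the dotted line is the median of all genes. Most replication genes lie left of the line, from *Chtf18* at -1.35 upwards, and the prophase genes lie on both sides.

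Promoters of *Sohlh2* and *Hormad2* are shown because they hold the letters CNCCTCAG, the core of the sequence that STRA8 and MEIOSIN are known to favour. Sequences are RefSeq windows of GRCm38.p6, printed 5′ to 3′ on the gene's strand from 200 bases before to 30 bases after the start, with every match on either strand in capitals. *Sohlh2* (chr3:55181844-55182073, plus strand) and *Hormad2* (chr11:4441053-4441282, minus strand) read as follows.
Sohlh2: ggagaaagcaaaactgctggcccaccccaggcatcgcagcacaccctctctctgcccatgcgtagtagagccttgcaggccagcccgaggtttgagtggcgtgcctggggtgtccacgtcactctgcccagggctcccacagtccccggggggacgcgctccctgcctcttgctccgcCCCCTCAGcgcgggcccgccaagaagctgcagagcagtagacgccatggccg
Hormad2: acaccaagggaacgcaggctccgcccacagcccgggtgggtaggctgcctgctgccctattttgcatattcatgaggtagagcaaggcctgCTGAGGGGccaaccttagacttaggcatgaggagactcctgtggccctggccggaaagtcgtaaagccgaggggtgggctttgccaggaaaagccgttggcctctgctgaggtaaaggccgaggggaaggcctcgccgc
Windows were found for 10341 of the 13132 tested genes, and the letters were searched on both strands from 250 bases before to 50 bases after the start. They were in 2465 of all 27025 genes with a window (9.12%), in 1148 of the 10341 tested genes (11.1%) and in 6 of 16 axis and synaptonemal complex genes (37.5%). *Sycp3*, the called gene of that list, did not hold them. They were in 1 of 8 double-strand break genes (12.5%) and in 4 of 26 strand exchange and crossover genes (15.4%). Among meiotic entry regulators 3 of 18 held them (16.7%), and among leptotene and zygotene markers 5 of 21 (23.8%). *Hormad2* was 613, 388 and 487 in WT and 735, 767 and 1236 in SKO (0.85 ± 0.25, adjusted p = 0.0419), with each SKO library above each WT library, and it missed the fold threshold. Among the genes of the whole table the letters were in 11.5% of genes called lower and in 8.85% of genes called higher.

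DNA replication genes were lower as a list, mostly by less than the fold threshold. Of 56 tested, 2 fell (3.57%, against 5.83% of all genes) and 0 rose (against 5.34%). However, 46 had a negative log2 fold change, against 6193 of all 13132 genes. In 29 of the 56 every SKO library was below every WT library, against 20% of all genes. The list median was -0.33, and -0.32 with SKO 3 alone, where 2 were lower. On the ERCC-calibrated values the list median turned to 0.39, which was again below that of all genes, 0.73. *Rrm1*, the large subunit of ribonucleotide reductase, was 7065, 6837 and 7085 in WT and 3318, 3656 and 3319 in SKO and fell by 1.03 ± 0.11 on the log2 scale (adjusted p = 0.000433). *Chtf18*, a subunit of an alternative clamp loader, was 759.6, 828 and 832 in WT and 249.7, 413 and 291 in SKO and fell by 1.35 ± 0.21 on that scale (adjusted p = 0.00359). Without SKO 1 *Rrm1* fell just short of the threshold. Without WT 1 or WT 2 the list held 4 genes called lower.

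Other replication genes stood just inside the fold threshold with groups that did not overlap. *Pcna*, the sliding clamp, was 18422, 17287 and 18720.4 in WT and 10440.3, 9456 and 10564 in SKO (log2 fold change -0.84 ± 0.12, adjusted p = 0.0019). *Lig1*, the ligase that joins Okazaki fragments, was 6734, 6778 and 8081 in WT and 3470.0, 3374 and 4105 in SKO (-0.98 ± 0.13, adjusted p = 0.00166), and *Rfc1*, the large subunit of the main clamp loader, was 5339.9, 5119.6 and 5494 in WT and 2794, 2767 and 2512 in SKO (-0.98 ± 0.11, adjusted p = 0.000673). Each of the 3 was lower in every SKO library. Within the MCM helicase the subunits differed: *Mcm3* was 3655, 3962 and 4277 in WT and 2479.8, 2669 and 2244 in SKO (-0.68 ± 0.12, adjusted p = 0.00659), whereas *Mcm5* was 4557, 3349 and 3737 in WT and 3477, 3814 and 4937 in SKO (0.07 ± 0.17, adjusted p = 0.814) with overlapping groups. The list was also below the median gene in SPG, where the genotype effect had a median of -0.25, and 0 of its members differed between PreL and SPG by the interaction test of limma (adjusted p under 0.05), with 14 at an unadjusted p under 0.05. *Pcna*, *Lig1*, *Rfc1*, *Mcm3* and *Mcm5* were chosen after their values were seen.

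Among genes of the G2 phase and mitosis the shares called were close to those of all genes. Of 40 tested, 2 fell (5.0%, against 5.83%) and 3 rose (7.5%, against 5.34%), with a median of 0.02, and with SKO 3 alone 1 was lower and 2 were higher. *Ccnb1*, which encodes the cyclin B1 of the mitotic kinase, was 2548, 2037 and 2281 in WT and 8085, 7756 and 10206 in SKO and rose by 1.91 ± 0.15 (adjusted p = 9.96e-05). *Cdc20*, the activator of the anaphase-promoting complex, was 1976, 1683 and 1291 in WT and 3075, 3192 and 5411 in SKO and rose by 1.20 ± 0.23 (adjusted p = 0.00889). *Kif20a*, a kinesin of cytokinesis, was 411, 299 and 299.9 in WT and 742, 597 and 827 in SKO and rose by 1.08 ± 0.21 (adjusted p = 0.00876). None of the 3 overlapped between genotypes, and SKO 3, the library low in Sertoli markers, was the highest in each. Without SKO 3 the changes of *Cdc20* and *Kif20a* were 0.94 and 0.98, inside the threshold, and that of *Ccnb1* was 1.79.

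The chromosomal passenger complex, which corrects chromosome attachment, was lower in 2 subunits. *Incenp*, its scaffold, was 1724, 1721 and 1753 in WT and 720.3, 709 and 720.3 in SKO and fell by 1.26 ± 0.13 on the log2 scale (adjusted p = 0.000306). *Aurkb*, its kinase, was 1299, 996 and 1307 in WT and 413, 642 and 612 in SKO and fell by 1.11 ± 0.21 on that scale (adjusted p = 0.0072), with -0.91 and no call without SKO 1. The other 2 subunits, *Birc5* and *Cdca8*, had log2 fold changes of -0.16 ± 0.13 and 0.20 ± 0.15 with overlapping groups (adjusted p = 0.423 and 0.381). Both were looked up after the values of *Incenp* and *Aurkb* had been seen.

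For this list the genotype effect in PreL was set against that in SPG, the stage before, by an interaction term over all 17 libraries. Over all genes 49 of 13530 (0.362%) differed, and 6 of the 40 were among them, namely *Ccnb1*, *Plk1*, *Ube2c*, *Ccna2*, *Ccnb2* and *Cdk1*, each with a higher effect in PreL. With 1 PreL library left out, *Ccnb1* and *Plk1* differed in all 6 fits, *Ube2c* in 3, *Ccna2* and *Cdk1* in 1 each and *Ccnb2* in 0. The median effect of the list was -0.43 in SPG. Rescaled over 17 libraries, *Ccnb1* was 7379, 7691 and 8409 in WT SPG and 4919, 6041 and 6797 in SKO SPG, then 2888, 2295 and 2568 in WT PreL and 9059, 8701 and 11492 in SKO PreL. WT libraries thus held less *Ccnb1* in PreL than in SPG, and SKO libraries held more. The difference of effects was 2.32 (adjusted p = 5.08e-06).

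*Cenpa*, the histone of the centromere, is outside the lists and was named after its values were seen, as the gene with the smallest interaction p. It was 9140.0, 8208 and 9176 in WT SPG and 4292, 5376 and 5031 in SKO SPG, then 2603, 2003 and 1879 in WT PreL and 6133, 6031 and 7255 in SKO PreL. The SKO libraries were below WT in SPG and above WT in PreL, a difference of 2.44 (adjusted p = 2.79e-06). In the polo-like kinase gene *Plk1* the difference was 2.07 (adjusted p = 0.0149), with 537, 341 and 401 in WT PreL and 493, 519 and 921 in SKO PreL, where the groups overlapped. The 5 genes *Ccnb1*, *Cenpa*, *Plk1*, *Stra8* and *Arl6ip1* differed from SPG in all 6 fits that left out 1 PreL library. The number of genes that differed ranged from 6 to 78 over those fits, with 6 without SKO 2, 9 without SKO 1, 18 without WT 4 and 21 without WT 2.

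**Figure D3:**
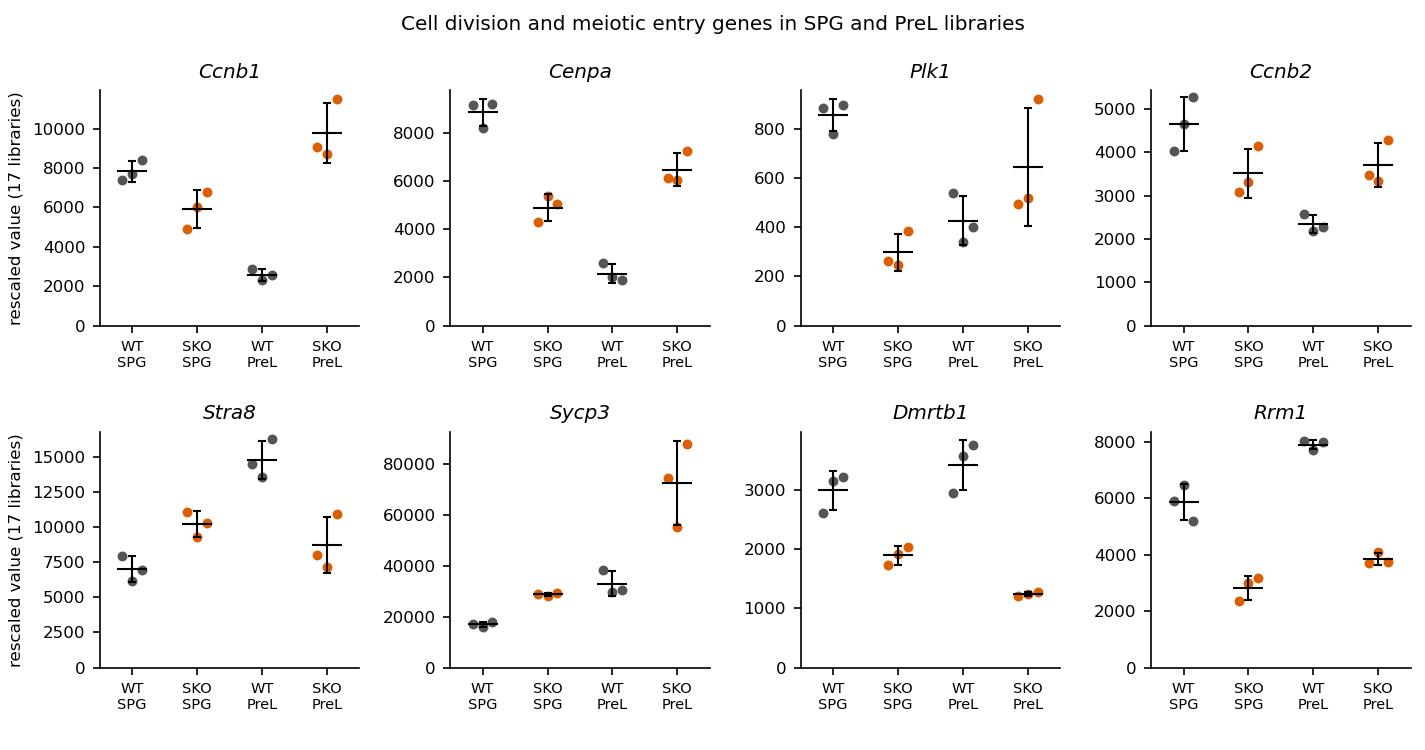
Rescaled values over 17 libraries of 8 cell division and meiotic entry genes in SPG and PreL libraries, grey for WT and orange for SKO, with a bar at the mean and its SD (n = 3 per group). In *Ccnb1* and *Cenpa* the SKO libraries lie below WT in SPG and above WT in PreL, and in *Stra8* the order is the reverse.

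Promoters of *Ccnb2*, *Cdc20* and *Cenpa* are shown because they hold TTTGAA, the core letters of the cell cycle homology region through which division genes are held down outside G2 and mitosis. They lie at chr9:70421525-70421754, minus strand, chr4:118437314-118437543, minus strand and chr5:30666686-30666915, plus strand of GRCm38.p6, with the matches in capitals.
Ccnb2: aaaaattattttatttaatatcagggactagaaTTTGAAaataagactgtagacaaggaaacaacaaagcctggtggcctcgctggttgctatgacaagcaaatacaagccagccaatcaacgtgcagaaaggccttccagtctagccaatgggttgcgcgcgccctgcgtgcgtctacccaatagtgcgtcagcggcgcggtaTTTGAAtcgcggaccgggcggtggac
Cdc20: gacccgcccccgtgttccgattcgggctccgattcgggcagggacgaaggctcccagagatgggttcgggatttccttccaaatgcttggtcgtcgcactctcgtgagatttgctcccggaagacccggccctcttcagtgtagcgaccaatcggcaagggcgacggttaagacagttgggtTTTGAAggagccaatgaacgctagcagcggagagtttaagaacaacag
Cenpa: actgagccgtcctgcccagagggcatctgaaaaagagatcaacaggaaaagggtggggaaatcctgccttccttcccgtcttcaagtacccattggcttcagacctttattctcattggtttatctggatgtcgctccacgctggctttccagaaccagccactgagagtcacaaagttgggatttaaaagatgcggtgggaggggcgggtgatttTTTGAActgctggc
On either strand the letters TTTGAA were in 23 of the 33 G2 and mitosis genes with a window (69.7%), against 5466 of 27025 genes (20.2%) and 1497 of the 10341 tested (14.5%). They were in 115 of the 575 genes called lower and in 97 of the 531 called higher. *Ccnb2*, cyclin B2, was 2279, 1944 and 2012 in WT and 3107, 2982 and 3812 in SKO (0.66 ± 0.14, adjusted p = 0.0121), with each SKO library above each WT library, and did not reach the fold threshold.

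Late germ cell genes had the lowest list medians. In SPG, in the fit over 17 libraries, the median genotype effect was -3.07 for spermatid markers. It was -1.17 for pachytene and diplotene markers and -1.54 for testis-specific isozymes. By the interaction test of limma 0, 0 and 1 of their members differed between PreL and SPG (adjusted p under 0.05). At an unadjusted p under 0.05 the counts were 11, 15 and 10. Of 33 spermatid markers 28 fell and 0 rose, with a median log2 fold change of -4.14, or -4.25 with the genes at or below 3 reads in SKO set to their bound, and -3.97 with SKO 3 alone. Of 29 pachytene and diplotene markers 23 fell, with a median of -2.52 (-2.95 with bounds). Beside them stand the summed markers above, which were lower in every SKO library. Over all genes 5.83% were called lower and 5.34% higher. At most 3 reads in each SKO library were held by 13 of the spermatid and 3 of the pachytene and diplotene markers. These passed the filter of 10 reads through the WT libraries, so the counts are a description and not a test. With SKO 3 alone 20 of the spermatid markers and 10 of the pachytene and diplotene markers were lower.

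Transcripts of spermatid chromatin proteins were nearly absent from the SKO libraries. *Tnp1*, a transition protein, was 2393, 3329.9 and 2275 in WT and 30.4, 57.2 and 34.4 in SKO (log2 fold change -5.74 ± 0.26, adjusted p = 5.35e-06), so that each SKO library was far below each WT library. *Hmgb4*, a high mobility group protein of spermatids, was 1672, 1629.7 and 1279.6 in WT and 0, 0 and 1.81 in SKO (-7.17 ± 0.30, adjusted p = 3.41e-06), with a single read in SKO 3 and none in the others. *Tnp2*, *Prm1* and *Prm2* fell too, with log2 fold changes of -8.04, -7.64 and -7.48.

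Testis-specific isozymes, which replace the somatic forms of metabolic enzymes from pachytene on, fell in 20 of 26 members and rose in 0, with a median of -3.27 (-3.72 with bounds), and 9 were lower with SKO 3 alone. The lactate dehydrogenase gene *Ldhc* was 4757, 13274 and 3217 in WT and 32.1, 74.7 and 70.6 in SKO (-6.48 ± 0.47, adjusted p = 8.45e-05). The phosphoglycerate kinase retrogene *Pgk2* was 957, 1316 and 649 in WT and 0, 0 and 1.81 in SKO (-6.48 ± 0.36, adjusted p = 1.76e-05). Both were highest in WT 2, and *Pgk2* was at or near 0 in each SKO library. *Ldhb*, a somatic form, rose, at 501, 242 and 253 in WT and 5354, 5656 and 644 in SKO (3.07 ± 0.71, adjusted p = 0.0191), but SKO 3 held far less of it than SKO 1 and SKO 2, as in the Leydig and Sertoli sums.

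Genes of the sperm tail fell in 18 of 32 members and rose in 0, with a median of -2.13, and 8 were lower with SKO 3 alone. *Akap4*, the main protein of the fibrous sheath, was 804, 929 and 748 in WT and 3.37, 1.59 and 1.81 in SKO (-6.09 ± 0.31, adjusted p = 1.08e-05). *Spag17*, of the central pair of the axoneme, was 268, 663 and 317 in WT and 3.37, 7.94 and 1.81 in SKO (-4.80 ± 0.43, adjusted p = 0.000181). Both were separated between genotypes by every library.

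Genes of the acrosome and of sperm binding to the egg fell in 23 of 34 members, with a median of -2.34, and 8 were lower with SKO 3 alone. The summed list was 32501, 33844 and 23599 in WT and 24735, 22267 and 36391 in SKO, so the groups overlapped and SKO 3 was highest. A positive log2 fold change was held by 4 of the 34. At most 3 reads in each SKO library were held by 12 of the 34, which passed the filter of 10 reads through the WT libraries. *Crisp2*, a secretory protein of the acrosome, was 1863, 3489.8 and 2329 in WT and 11.8, 14.3 and 18.1 in SKO (-6.66 ± 0.28, adjusted p = 3.67e-06). *Acr*, which encodes the protease acrosin, was 38.8, 78.1 and 31.2 in WT and 0, 0 and 0 in SKO, which is at least 9.70-fold lower against 3 reads per library. In the ADAM family of membrane metalloproteinases 8 of 18 fell (44.4%, against 5.83% of all genes) and 1 rose (5.56%, against 5.34%). The list median was -1.06, and -1.32 with SKO 3 alone. The sperm surface genes *Adam3* and *Adam5* stood at -5.72 and -6.19. *Adam3* was 506, 910.1 and 467 in WT and 0, 0 and 5.43 in SKO, so that only SKO 3 held any reads of it among the SKO libraries. The summed ADAM list overlapped between groups, at 7277, 11300 and 11119 in WT and 9091, 7762 and 9795 in SKO. *Acr*, which passed the filter through the WT libraries, was chosen after its values were seen.

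Regulators of the late programme fell too. Of 29 testis kinases and late transcription regulators 17 fell and 0 rose, with a median of -2.39, and 10 were lower with SKO 3 alone. In the piRNA pathway, which silences transposons, 2 of 31 genes fell (6.45%, against 5.83% of all genes). The median was 0.05, and 0.08 with SKO 3 alone. The 2 genes that fell belong to the later, pachytene branch of the pathway. *Piwil1*, the Argonaute of pachytene piRNAs, was 597, 2018 and 382 in WT and 45.5, 76.3 and 23.5 in SKO (-3.85 ± 0.58, adjusted p = 0.00276). *Tdrd6*, of the chromatoid body, was 211, 676 and 335 in WT and 3.37, 15.9 and 5.43 in SKO (-4.42 ± 0.49, adjusted p = 0.000538). Neither gene overlapped between genotypes, and WT 2 was the highest library in both.

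Outside the lists, the genes with the largest decreases had few or no reads in SKO. *Ms4a5*, of a membrane protein family, was 721, 1062 and 573 in WT and 0, 0 and 0 in SKO, at least 154-fold lower. In the list of glutathione S-transferases *Gstt4* was 989, 839.6 and 539 in WT and 0, 0 and 0 in SKO, at least 155-fold lower, while the germ cell form *Gstm5* was 4705, 8729 and 4665 in WT and 1565, 2130.4 and 1160.1 in SKO and fell by 1.87 ± 0.28 on the log2 scale. *Fabp9*, the fatty acid binding protein of the sperm head, was 4727, 12446 and 3066 in WT and 37.1, 135 and 63.3 in SKO (-6.16 ± 0.52). Among symbol families with at least 20 tested genes, RIKEN clone names beginning with 1700, which come from adult testis, had 128 of 221 members lower (57.9%) and 1 higher, with a median of -2.21. Those beginning with 4933 had 18 of 51 lower (35.3%), those beginning with 4930 had 36 of 117 (30.8%), *Lrrc* genes 8 of 42 (19.0%) and *Ccdc* genes 20 of 116 (17.2%), against 5.83% of all genes.

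The promoter of *Tcp11*, a testis protein gene needed for sperm motility, is shown because it holds GTTGCCATG, letters of the X-box bound by RFX factors, at chr17:28079735-28079964, minus strand of GRCm38.p6. It is the window of 1 of 3 annotated starts of this gene, chosen because it holds the letters, and they are in capitals.
Tcp11: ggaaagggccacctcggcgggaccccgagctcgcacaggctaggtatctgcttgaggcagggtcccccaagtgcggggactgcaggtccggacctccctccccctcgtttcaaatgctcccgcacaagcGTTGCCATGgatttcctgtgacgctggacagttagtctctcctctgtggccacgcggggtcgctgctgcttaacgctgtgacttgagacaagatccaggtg
These letters were in 17 of 575 genes called lower (2.96%), in 2 of 531 called higher (0.377%) and in 90 of the 10341 tested (0.87%), as well as in 237 of all 27025 (0.877%). By list, they were in 0 of 28 sperm tail genes with a window, in 1 of 28 spermatid markers and in 1 of 20 pachytene and diplotene markers. *Tcp11* was 280.2, 352 and 181 in WT and 3.37, 4.77 and 12.7 in SKO, each SKO library below each WT library, with a log2 fold change of -4.04 ± 0.41 (adjusted p = 0.000346). It was chosen after its values were seen.

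Many interferon-stimulated genes rose. Of 35 tested 13 rose (37.1%, against 5.34% of all genes) and 1 fell (2.86%, against 5.83%). The list median was 1.54, and 1.02 with SKO 3 alone. In 18 of the 35 every SKO library was above every WT library, against 17.4% of all genes. The count that rose was 6 without SKO 1, 7 without SKO 2, 8 without WT 2 and 14 without SKO 3. The summed list, which includes the highly expressed *Xaf1* given below, went the other way. It was 22928, 35106 and 35419 in WT and 23740, 21482 and 20419 in SKO, with overlapping groups and means of 31151 and 21880. *B2m*, the invariant chain of MHC class I, was 959, 691 and 682 in WT and 3865, 3700.0 and 2561 in SKO and rose by 2.1 ± 0.20 (adjusted p = 0.000215), with no overlap. *Ifitm2*, a membrane protein that blocks viral entry, was 26.4, 20.9 and 29.2 in WT and 295, 268 and 148 in SKO and rose by 2.75 ± 0.37 (adjusted p = 0.0017). *Iigp1*, an interferon-inducible GTPase, was 0, 0 and 0 in WT and 138, 186 and 67.0 in SKO, which is at least 23.2-fold higher against 3 reads per library.

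Members of the list differed in direction. *Ifih1*, a sensor of double-stranded RNA, was 28.2, 1.90 and 48.7 in WT and 108, 148 and 85.1 in SKO and rose by 2.02 ± 0.59 (adjusted p = 0.0427). *Irf9*, of the factor that binds interferon response elements, was 1632, 2153 and 2283 in WT and 1274, 1268 and 1198 in SKO (-0.68 ± 0.15, adjusted p = 0.0167). Each SKO library was below each WT library in *Irf9*. *Ifit2* and *Ifit3* had negative changes of -0.51 and -0.37 with overlapping groups, beside *Ifit1*, which was 7.05, 0 and 11.7 in WT and 86.0, 41.3 and 34.4 in SKO and rose by 1.96 ± 0.52 (adjusted p = 0.0314). *Xaf1*, a partner of the inhibitor of apoptosis XIAP, was 15759, 27785 and 27901 in WT and 11226, 9144 and 10173 in SKO and fell by 1.18 ± 0.22 on the log2 scale (adjusted p = 0.00686), with the groups apart. The members of this paragraph other than *Xaf1* were chosen after their values were seen.

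Promoters of *Ifit1*, *Ifitm2*, *B2m* and *Gbp2* are shown for GAAANNGAA, core letters of the interferon-stimulated response element. They lie at chr19:34640689-34640918, plus strand, chr7:140955932-140956161, minus strand, chr2:122147487-122147716, plus strand and chr3:142620463-142620692, plus strand of GRCm38.p6, with matches on either strand in capitals. Adjacent matches in *Ifit1* overlap.
Ifit1: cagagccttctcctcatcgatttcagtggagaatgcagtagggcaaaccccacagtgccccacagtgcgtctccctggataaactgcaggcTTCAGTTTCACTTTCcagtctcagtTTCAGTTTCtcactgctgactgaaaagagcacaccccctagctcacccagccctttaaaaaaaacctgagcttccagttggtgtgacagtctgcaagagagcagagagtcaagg
Ifitm2: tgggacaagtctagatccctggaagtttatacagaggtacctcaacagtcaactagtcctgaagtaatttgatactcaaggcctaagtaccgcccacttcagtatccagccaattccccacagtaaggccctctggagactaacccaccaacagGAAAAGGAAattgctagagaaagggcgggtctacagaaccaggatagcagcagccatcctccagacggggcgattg
B2m: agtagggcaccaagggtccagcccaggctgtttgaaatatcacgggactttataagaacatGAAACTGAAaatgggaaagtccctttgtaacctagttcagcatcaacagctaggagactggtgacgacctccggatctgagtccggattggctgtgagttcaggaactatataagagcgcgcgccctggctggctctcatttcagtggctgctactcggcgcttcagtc
Gbp2: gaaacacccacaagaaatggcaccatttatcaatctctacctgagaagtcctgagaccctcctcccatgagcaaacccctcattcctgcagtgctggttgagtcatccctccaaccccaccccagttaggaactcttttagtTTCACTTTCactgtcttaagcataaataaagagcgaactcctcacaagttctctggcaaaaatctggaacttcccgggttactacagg
The letters were in 14 of 26 interferon-stimulated genes with a window (53.8%) and in 7 of the 10 of them called higher (70.0%). They were in 2638 of all 27025 genes (9.76%), in 851 of the 10341 tested (8.23%), in 63 of the 531 called higher (11.9%) and in 50 of the 575 called lower (8.7%). *Gbp2*, a guanylate-binding protein, was 0, 0 and 5.84 in WT and 55.7, 95.3 and 43.4 in SKO and rose by 2.62 ± 0.49 (adjusted p = 0.00732), with each SKO library above each WT library.

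Antigen presentation genes rose in 5 of 10 members and fell in 0, with a median of 1.36 (1.09 with SKO 3 alone, where 1 of 10 was higher), and 3 were called without SKO 1, without SKO 2 or without WT 2. *H2-Ab1*, a beta chain of MHC class II, was 361, 225 and 298 in WT and 838, 826 and 775 in SKO and rose by 1.46 ± 0.21 (adjusted p = 0.00219). In SPG the genotype effect on *H2-Ab1* was larger, at 3.80, and the difference of effects was -2.35 (adjusted p = 0.0442), which was not called in any of the 6 fits without 1 PreL library. *Cd74*, the invariant chain of that complex, was 52.9, 26.7 and 74.0 in WT and 379.6, 324 and 123 in SKO and rose by 2.16 ± 0.48 (adjusted p = 0.0158), with SKO 3 the lowest of the SKO libraries. *Psmb8*, a proteasome subunit for antigen processing, rose by 1.72 ± 0.34.

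Genes of B and T lymphocytes were high in all 3 SKO libraries. Of 16 tested 12 rose and 0 fell, with a median of 2.16 and of 2.02 with SKO 3 alone, where 0 of 14 were called. In 14 of the 16 each SKO library was above each WT library, against 17.4% of all genes. The share called higher was 75.0%, against 5.34% of all genes. Of the 16, 3 had at most 3 reads in each WT library and passed the filter of 10 reads through the SKO libraries. The share is therefore given as a description and not as a test. Leaving out 1 library left 6 to 10 members of the list called, with 6 without SKO 1. The summed list was 552, 505 and 411 in WT and 2535, 2175 and 2291 in SKO. *Igll1*, a surrogate light chain of the pre-B cell receptor, was 0, 0 and 0 in WT and 164, 143 and 121 in SKO, at least 25.4-fold higher. *Cd79b*, of the B cell receptor, was 10.6, 3.81 and 0 in WT and 177, 132 and 185 in SKO and rose by 3.61 ± 0.43 (adjusted p = 0.000863). *Cd3g*, of the T cell receptor, was 52.9, 57.1 and 54.5 in WT and 449, 300.3 and 255 in SKO and rose by 2.37 ± 0.31 (adjusted p = 0.00136), and *Nkg7*, of cytotoxic lymphocytes, was 125, 126 and 76.0 in WT and 455, 407 and 476 in SKO (1.97 ± 0.27, adjusted p = 0.00172). In each of these 4 genes SKO 3 stood above every WT library, and in *Cd79b* and *Nkg7* it was the highest of all.

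Some of these genes were near 0 in both genotypes of SPG. *Vpreb3*, of the pre-B cell receptor, was 0, 0 and 0 in WT SPG, 0, 0 and 0 in SKO SPG, 0, 6.43 and 0 in WT PreL and 193, 198 and 245 in SKO PreL, rescaled over 17 libraries. The mast cell protease gene *Cma1* was 0, 0 and 0 in WT PreL and 125, 153 and 102 in SKO PreL, and *Cpa3*, the mast cell carboxypeptidase, was 0, 0 and 0 and 112, 109 and 126. In SPG, *Cma1* was 25.1, 0 and 0 in WT and 0, 0 and 0 in SKO. In each of the 3 genes every SKO PreL library stood above all WT PreL and all SPG libraries. In leptotene/zygotene libraries *Vpreb3* was 2.82 and 63.1 in WT and 76.5, 28.4 and 46.1 in SKO. *Igll1* was 0 and 29.7 in WT and 54.6, 28.4 and 50.3 in SKO there, and *Cma1* was 0 in each. The genotype effect differed from that in SPG by 4.22 for *Vpreb3*, 4.36 for *Cma1* and 3.57 for *Cpa3* (interaction adjusted p = 0.0244, 0.0115 and 0.0117). With 1 PreL library left out, *Vpreb3* differed in 3 of 6 fits. *Vpreb3*, *Cma1* and *Cpa3* passed the filter of 10 reads through the SKO PreL libraries, in which they are high. Their differences and p-values are therefore given as a description and not as a test. These 3 genes were named after their values were seen.

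**Figure D4:**
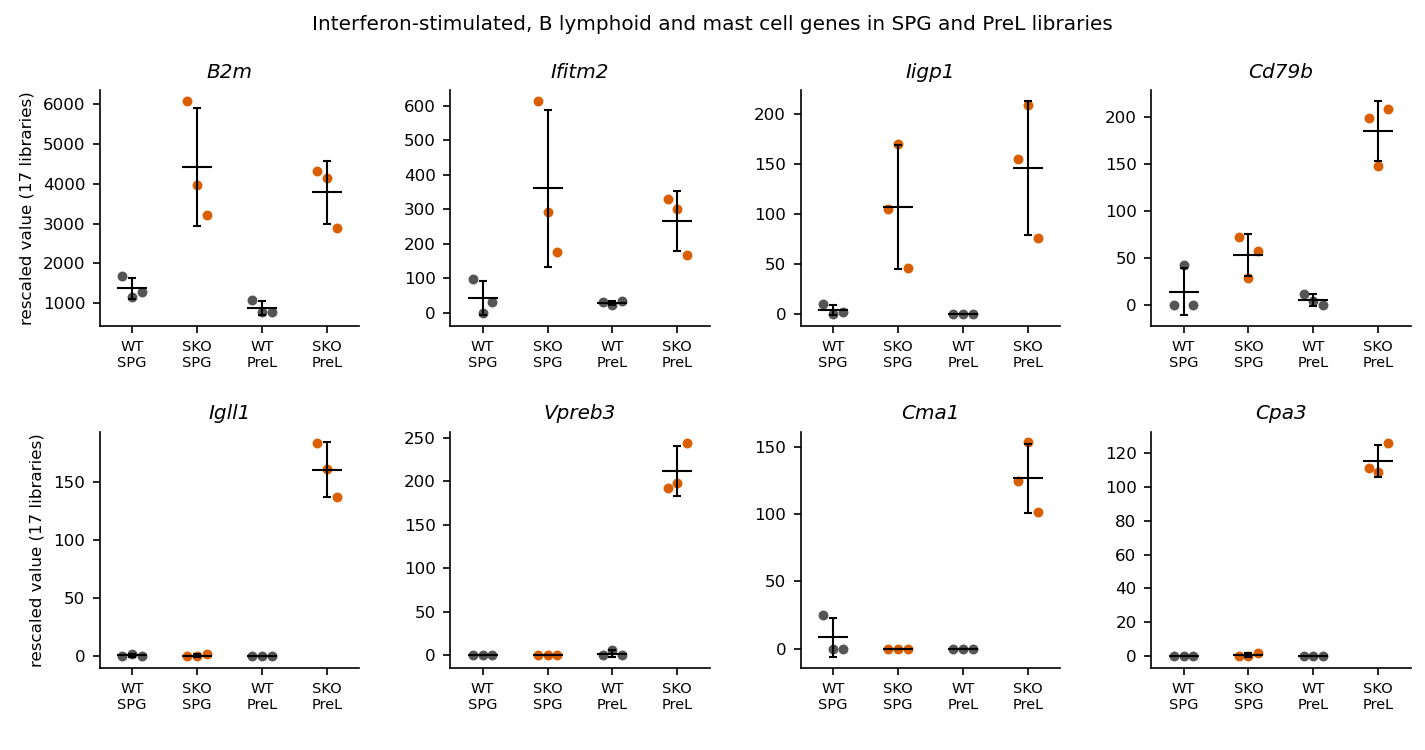
Rescaled values over 17 libraries of interferon-stimulated (*B2m*, *Ifitm2*, *Iigp1*), B lymphoid (*Cd79b*, *Igll1*, *Vpreb3*) and mast cell (*Cma1*, *Cpa3*) genes in SPG and PreL libraries, grey for WT and orange for SKO, with a bar at the mean and its SD (n = 3 per group). The interferon-stimulated genes are higher in SKO at both stages. Of the groups shown, *Igll1*, *Vpreb3*, *Cma1* and *Cpa3* are near 0 in all but SKO PreL, apart from 25.1 of *Cma1* in 1 WT SPG library.

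Leydig cell markers, among them the enzymes of testosterone synthesis, rose in 17 of 24 members and fell in 0, with a median of 3.39 (3.53 with bounds) and 1.56 with SKO 3 alone, where 0 were called. The count was 6 without SKO 1 or without SKO 2 and 10 without WT 4. *Insl3*, a peptide hormone of Leydig cells, was 0, 17.1 and 1.95 in WT and 409.9, 345 and 107 in SKO (4.13 ± 0.59, adjusted p = 0.00222), and *Cyp11a1*, the side-chain cleavage enzyme that starts steroid synthesis, was 0, 28.6 and 72.1 in WT and 444, 982 and 141 in SKO (3.69 ± 0.83, adjusted p = 0.0162). Both were lowest in SKO 3 among the SKO libraries, and still above each WT library. In SPG the median genotype effect was 2.93 for Leydig, 0.38 for Sertoli and 2.99 for peritubular myoid markers. By the interaction test of limma 0 members of these 3 lists differed between PreL and SPG (adjusted p under 0.05). At an unadjusted p under 0.05 the counts were 1, 9 and 5. Of 25 Sertoli markers 9 rose, with a median of 2.01 but 0.07 with SKO 3 alone, where 0 were called, and the count was 1 without SKO 1, 2 without SKO 2, 3 or 4 without 1 WT library and 23 without SKO 3. *Clu*, an abundant Sertoli secretory protein, was 959, 862 and 929 in WT and 8912, 11421 and 749 in SKO (2.2 ± 0.82, adjusted p = 0.0929), with SKO 3 below every WT library. Peritubular myoid markers rose in 6 and fell in 1 of 17, with 0 called higher with SKO 3 alone, without SKO 1 or without SKO 2, 1 without WT 1 or WT 2 and 10 without SKO 3. The share called higher was 70.8% of the Leydig, 36.0% of the Sertoli and 35.3% of the peritubular myoid markers, against 5.34% of all genes. *Insl3*, *Cyp11a1* and *Clu* were chosen after their values were seen.

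Some detoxifying, matrix and retinoid genes rose, beside 5.34% of all genes called higher and 5.83% called lower. The glutathione S-transferase *Gstm1* was 254, 279.9 and 236 in WT and 4735, 6623 and 771 in SKO (3.45 ± 0.64, adjusted p = 0.00721), and 7 of 22 genes of its family rose while 2 fell. Of 19 collagen genes 6 rose and 3 fell. *Col4a1*, of basement membranes, was 8.81, 5.71 and 15.6 in WT and 106, 181 and 41.6 in SKO and rose by 2.42 ± 0.54 (adjusted p = 0.0161), whereas *Col16a1* was 51.1, 114 and 99.3 in WT and 20.2, 14.3 and 14.5 in SKO and fell by 1.84 ± 0.43 on the log2 scale (adjusted p = 0.0194). In retinoic acid signalling 3 of 17 genes rose (17.6%) and 0 fell, with a list median of 0.09. *Aldh1a1*, which makes retinoic acid from retinal, was 58.2, 559.7 and 333 in WT and 4347, 6973 and 776 in SKO (3.60 ± 0.88, adjusted p = 0.0224). *Crabp1*, the retinoic acid binding protein of spermatogonia, was 1301, 1420.3 and 1096 in WT and 1239.9, 1477 and 1239.8 in SKO (0.05 ± 0.15), with overlapping groups. With SKO 3 alone none of the 3 lists held a gene called higher, and without SKO 1 the counts were 2 for the glutathione S-transferases and 0 for the other 2 lists. *Col4a1*, *Col16a1* and *Crabp1* were chosen after their values were seen.

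Immediate early genes, which respond within minutes to stimuli such as tissue dissociation, rose in 5 of 29 members, with a median of 1.26 and 0.24 with SKO 3 alone, where 0 were called. The 5 are 17.2% of the list, against 5.34% of all genes. None was called higher without SKO 1, 3 were without SKO 2 and 16 without SKO 3. *Fosb* was 45.8, 38.1 and 19.5 in WT and 204, 243 and 118 in SKO and rose by 2.15 ± 0.41 (adjusted p = 0.00828). Its genotype effect was larger in SPG, at 5.37, and the difference was -3.20 (interaction adjusted p = 0.0432), called in 1 of the 6 fits without 1 PreL library. Macrophage markers rose in 7 and fell in 2 of 23, with a median of 1.08 and 0.08 with SKO 3 alone, where 1 was lower and 0 were higher, and 2 rose without SKO 1, 3 without WT 2 and 4 without SKO 2. Of the macrophage markers 30.4% were called higher and 8.70% lower, against 5.34% and 5.83% of all genes. The summed macrophage list was 3805, 4402 and 4791 in WT and 7382, 7626 and 4338 in SKO, which is within the WT range in SKO 3. *Lyz2*, a lysozyme, was 31.7, 60.9 and 185 in WT and 376, 604 and 199 in SKO and rose by 2.14 ± 0.57 (adjusted p = 0.0318), whereas *Aif1* was 451, 543 and 284 in WT and 109.6, 197 and 16.3 in SKO and fell by 2.28 ± 0.65 on the log2 scale (adjusted p = 0.0399).

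Of 22 markers of undifferentiated spermatogonia 3 rose (13.6%, against 5.34% of all genes) and 0 fell, with a median of 0.61 and 0.13 with SKO 3 alone, where 0 were called. *Lin28a*, an RNA-binding protein of stem and progenitor cells, was 42.3, 22.8 and 5.84 in WT and 105, 119 and 68.8 in SKO (1.81 ± 0.51, adjusted p = 0.0375), and *Thy1*, a surface protein, was 22.9, 19.0 and 29.2 in WT and 101, 90.6 and 86.9 in SKO (1.62 ± 0.37, adjusted p = 0.0172), both without overlap. Of 19 markers of differentiating spermatogonia 2 fell (10.5%, against 5.83%) and 3 rose (15.8%), and with SKO 3 alone 1 was lower and 1 higher. They include *Dmrtb1*, *Sohlh2* and *Sycp3* above, as well as *Ccnd2*, the D-type cyclin of retinoic acid responsive cells, at 146, 101 and 68.2 in WT and 407, 691 and 170.1 in SKO (1.76 ± 0.48, adjusted p = 0.0337). *Lin28a*, *Thy1* and *Ccnd2* were chosen after their values were seen, and 0 of the undifferentiated markers were called higher without SKO 1 or without SKO 2.

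Lists of general machinery held a few called genes, beside 5.83% called lower and 5.34% called higher over all genes. Among 25 heat shock protein genes 3 fell and 2 rose. *Hspa1l*, an HSP70 gene of spermatids, was 312, 432 and 210.3 in WT and 23.6, 20.7 and 10.9 in SKO, *Hspa2*, that of spermatocytes, fell by 1.12 ± 0.29 on the log2 scale, and *Hspb9*, a small heat shock protein of testis, was 231, 404 and 127 in WT and 6.75, 6.35 and 0 in SKO (-4.09 ± 0.49, adjusted p = 0.000901). Among 18 glycolysis genes 2 fell and 2 rose (11.1% each), with a median of -0.05. *Hk1*, a hexokinase gene, was 125, 228 and 226 in WT and 43.9, 55.6 and 45.2 in SKO (-1.76 ± 0.35, adjusted p = 0.00981). *Slc2a3*, the glucose transporter GLUT3, was 955, 3130 and 557 in WT and 86.0, 106 and 32.6 in SKO (-3.94 ± 0.59, adjusted p = 0.00277), and in both genes each SKO library was below each WT library. In the BCL2 family of apoptosis regulators 1 of 14 genes fell, *Bcl2l14*, and 1 rose. Of 20 replication-dependent histone genes 3 rose, and *Hist1h2bc* was 26.4, 26.7 and 1.95 in WT and 356, 364 and 63.3 in SKO (3.10 ± 0.70, adjusted p = 0.017). Their transcripts mostly lack a poly(A) tail, on which the libraries were primed. In cholesterol synthesis 1 of 23 genes rose, *Ebp*, at 100.5, 9.52 and 0 in WT and 341, 362 and 128 in SKO (3.24 ± 0.80, adjusted p = 0.024), and WT 1 was close to SKO 3. Of 17 genes listed with the DNA methylation enzymes *Apobec1*, a cytidine deaminase, rose by 1.94 ± 0.47. Of 7 endothelial markers 2 rose, *Cd34* by 2.47 ± 0.54 and *Ly6c1* by 2.09 ± 0.49. Of 5 genes listed as erythroid markers *Gata1* rose, by 2.48 ± 0.75. The summed erythroid list was 115, 112 and 54.5 in WT and 358, 281 and 57.9 in SKO, so SKO 3 lay within the WT range.

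Housekeeping machinery was near the median gene. Its counts stand beside 5.83% called lower and 5.34% called higher over all genes. Of 86 cytosolic ribosomal protein genes 1 rose and 0 fell (median -0.10), of 75 subunits of oxidative phosphorylation 1 rose and 0 fell (-0.04), and of 43 proteasome subunits 1 fell and 1 rose (-0.10). Factors of ribosome biogenesis, the process in which NAT10 acetylates 18S rRNA, had 2 of 82 lower, *Nat10* and *Tbl3*, and 0 higher (-0.15). *Tbl3*, of the small subunit processome, was 1424, 1397 and 1287 in WT and 579, 705 and 655 in SKO and fell by 1.07 ± 0.15 on the log2 scale (adjusted p = 0.0017), and without SKO 1 it fell just short of the threshold. In 33 of those 82 genes every SKO library was below every WT library, against 20% of all genes. The same held for 35 of the 86 ribosomal protein genes, 21 of the 75 oxidative phosphorylation genes and 14 of the 43 proteasome genes. Every SKO library was above every WT library for 9, 8, 10 and 8 genes of these lists in that order, against 17.4% of all genes. Targets of p53 had a list median of 0.07 (-0.10 with SKO 3 alone), and 13 of 28 members had a negative log2 fold change. Of the 28, 3 rose (10.7%, against 5.34% of all genes) and 0 fell. They were the ribonucleotide reductase subunit gene *Rrm2b*, at 428, 319.9 and 428 in WT and 887, 863 and 863 in SKO (1.14 ± 0.18, adjusted p = 0.00329), the kinase gene *Plk2* (1.10 ± 0.21) and the BH3-only gene *Pmaip1* (1.29 ± 0.31). The groups did not overlap in any of the 3. *Rrm2b* was called in all 6 fits without 1 library, *Plk2* in all but that without SKO 1, and *Pmaip1* was not called without SKO 1, SKO 2 or WT 4.

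Both single risers among the ribosomal and oxidative phosphorylation genes are on the X chromosome. *Rps4x* was 476, 417 and 405 in WT and 1545, 1730.1 and 1086 in SKO and rose by 1.70 ± 0.20 (adjusted p = 0.000716), and *Ndufb11* was 869, 632 and 569 in WT and 1807, 1773 and 1401 in SKO and rose by 1.27 ± 0.19 (adjusted p = 0.00276). Of 541 X-linked genes tested 47 rose (8.69%) and 16 fell (2.96%), with a median log2 fold change of 0.26, against 5.20%, 5.94% and 0.03 over the autosomes. The share that rose was the highest of 20 chromosomes, next to 8.48% on chromosome 3, and with SKO 3 alone the medians were 0.16 and 0.01. The number of X-linked genes called higher was 13 without SKO 1, 22 without SKO 2, 24 without WT 2 and 79 without SKO 3. Members of the ribosomal, glutathione S-transferase, interferon-induced and MHC families have close copies between which reads could be split, and whether counting used strand is not given in the sources used here.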

How the data were processed

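RNA was sequenced from sorted pre-leptotene spermatocytes, and the deposited table holds 1 signal value per gene and library. Per the methods of the study, the authors mapped trimmed reads to mm10, quantified uniquely mapped reads with HTSeq 0.11.2 and Cufflinks 2.2.1, normalized them on the ERCC spike-in, calibrated the table for cell input and compared groups with DESeq2. The submitters' processing notes also name TopHat2 2.1.1 and mm9. In all 6 libraries 100% of the deposited values were whole multiples of 1 factor per library (tolerance 0.001), so whole reads were recovered, and 0 value columns were without a sample.

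Values were divided by median-ratio size factors over the 6 libraries. Genes averaging 10 reads or more were tested on log2(value + 10) with limma 3.58.1 in R 4.3.3 (moderated test, two-sided, adjusted by the Benjamini-Hochberg method over all genes tested), and the genotype effect was set against that in SPG and in leptotene/zygotene (LZ) cells by an interaction term over 17 libraries. The scripts were tested on simulated data. edgeR 4.0.16 (quasi-likelihood) and DESeq2 1.42.0 were run on the recovered reads as alternatives, beside TMM and ERCC scaling, pseudocounts of 1 and 50, other filters, no fold threshold, length and GC trends removed, a replicate block, all 17 libraries in 1 fit and each library left out. SKO 3 alone was added after the data were seen.

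The members and lists were chosen with earlier results of these data known. The older symbols of 2 list members (*Spo16* and *Majin*) were corrected after the values were seen. There were 46 lists (34 of pathways or families, 12 of cell type markers), of which that of mitochondrially encoded genes had no gene in the table. Genes were named by a rule (116 in all): *Nat10*, 15 genes of meiotic entry and early prophase, up to 3 called members per list and direction that averaged 50 reads or more without overlap between groups, and the 10 genes outside the lists with the largest changes in each direction and at least 100 reads. Families by symbol had at least 20 genes tested. Other genes are said to be chosen after their values were seen, or were taken as examples of a list. Some genes counted in a list are not reported here by name or in a figure of single genes. Of the 23282 symbols, 20857 matched GENCODE (GRCm38) directly and 1941 through an older symbol, and 484 were unmatched. A fold against a group at 0 was computed against 3 reads per library. The libraries' number and depth limit the precision, and reads without molecular identifiers are not independent molecules.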

Additional observations from a re-analysis of the deposited data

Results flagged for a closer look

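The genotype effect in PreL differed from that in SPG for 49 of 13530 genes by an interaction term (limma, adjusted p under 0.05), 34 with the higher effect in PreL and 15 with the lower, and 4 genes named by rule were among them. For *Ccnb1* the difference of effects was 2.32 (adjusted p = 5.08e-06), and for *Stra8* it was -1.33 (adjusted p = 0.00917). Both differed in all 6 fits without 1 PreL library. It was -3.20 for *Fosb* (adjusted p = 0.0432) and -2.35 for *H2-Ab1* (adjusted p = 0.0442), which differed in 1 and in 0 of those 6 fits. *Fosb* and *H2-Ab1* had effects of 5.37 and 3.80 in SPG and of 2.17 and 1.45 in PreL in the fit over 17 libraries.

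Against LZ cells, with 2 WT and 3 SKO libraries, the effect differed for 5161 genes. The part of cell composition in these differences was not tested.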

How the results depend on the processing

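Against 765 genes called lower and 701 called higher, a filter at a mean of 50 reads gave 390 and 375, and SKO 3 alone gave 189 and 17. Dropping the fold threshold gave 1318 lower, and ERCC-calibrated values without rescaling gave 3459 higher. Leaving out 1 library at a time gave 510 to 820 lower and 180 to 1058 higher, with 180 without SKO 1 and 1058 without SKO 3. Replicate numbers 1 and 2 occur in both genotypes, but deviations from the group means correlated at -0.06 and 0.11 for same-numbered libraries, so the numbers were not taken to pair the samples. With a replicate block 888 genes were lower and 1260 higher. TMM scaling, pseudocounts of 1 and 50, no filter, edgeR, DESeq2, removal of length and GC trends and 1 fit of all 17 libraries gave 618 to 889 lower and 484 to 904 higher.

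Of 45 lists, 9 had a median above 1, against 3 with a pseudocount of 50, 5 with SKO 3 alone and 6 to 10 without 1 library. There were 7 below -1, and 6 or 7 without 1 library. The 49 genes that differed from SPG became 6085 on ERCC-calibrated values, 17 with a pseudocount of 1, 28 with the higher filter and 6 to 78 without 1 library. The cause was not tested. The 5161 that differed from LZ became 4473 to 7324, and 4544 to 5070 without 1 library.

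Among the named genes, only some that were not called changed sign under these settings. *Rec8* was -0.055 with the block and 0.013 to 0.37 without 1 library. *Smc1b* was -0.038 with the block, -0.070 without length and GC trends and -0.11 to 0.21 without 1 library. *Stag3* was 0.62 on ERCC-calibrated values, 0.35 with SKO 3 alone and -0.33 to 0.066 without 1 library. *Kit* was 0.60 on ERCC-calibrated values, and *Zbtb16* was -0.62 with SKO 3 alone and -0.34 to 0.47 without 1 library. Of the 116 named genes, 61 lost their call with SKO 3 alone and 36 without SKO 1.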
